A study of Mus musculus with 6 samples.

Results

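The genes described here are the D-type cyclins Ccnd1, Ccnd2 and Ccnd3, their kinase partners Cdk4 and Cdk6, the CDK inhibitors Cdkn1b, Cdkn1c and Cdkn2c, the pocket protein gene Rb1 and the transcription factor gene E2f1. They were taken by symbol from the deposited gene table, and all 10 were found among its 22322 genes and were tested among 13161. The cells were mouse neural stem progenitor cells of wild-type genotype, a population that can self-renew and give rise to neurons and glia. One group of 3 libraries was treated with PTN and the other group of 3, called Control, with PBS, both for 24 h. PTN is given only as an abbreviation and is read here as pleiotrophin, a secreted growth factor that binds heparin. The series title speaks of a conditioned medium without detail, and the PTN dose, strain and age are each not given in the sources used here. No label ties a library to a culture or animal of its own, and p-values here cover only the spread between the libraries, which may be technical.

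In the G1 phase of the cell cycle, D-type cyclins bind CDK4 or CDK6, and the active kinases phosphorylate the retinoblastoma protein. This releases E2F transcription factors, which switch on genes of DNA replication. INK4 inhibitors bind CDK4 and CDK6 directly, whereas inhibitors of the CIP/KIP family bind cyclin and kinase together. In neural progenitors the length of G1 and the choice between a further division and differentiation are linked, and cyclin D genes are transcribed in response to growth factors.

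Expected counts summed to between 19267764 and 26341745 per library. All 12 markers of neural stem and progenitor cells fixed for the check of the cell type lay above 1 CPM, a count scaled by library size, in all 6 libraries. Their summed level was 7681 to 8821 CPM in Control and 10590 to 11550 CPM in PTN. Vim was the largest part of this sum, at means of 3448 CPM in Control and 5165 CPM in PTN. Vim and Egfr were called higher and the other 10 were not called. Log2 fold changes were positive in 9 of the 12 and negative in 3, among them Msi1, which was 1.49-fold lower. Of 7 microglia markers only P2ry12, at a mean of 2.20 CPM, exceeded 1 CPM in any library. The summed level of 6 endothelial markers was low, at 1.61 to 2.43 CPM in Control and 3.48 to 5.72 CPM in PTN. Of these 6, 2 were tested and 0 called. Summed astrocyte markers (7 genes) lay between 8015 and 8329 CPM in Control and stood at 2458, 5291 and 3084 CPM in PTN libraries 1, 2 and 3. This sum fell mostly through Gfap and Aldoc, at means of 3652 and 1264 CPM in Control and 814 and 303 CPM in PTN. Log2 fold changes were negative in 5 of the 7 and positive in 2, S100b and Aqp4, which were not called. Summed fibroblast and mural markers (7 genes) reached 31.9 to 32.7 CPM in Control and 9.45 to 14.5 CPM in PTN. This sum fell mostly through Acta2 and Pdgfrb, at means of 16.7 and 6.06 CPM in Control and 3.37 and 1.08 CPM in PTN. Both were called lower, and the other 4 tested were not called. Log2 fold changes were negative in 5 of the 6 tested and positive in Dcn. Of 7 tested oligodendrocyte lineage markers Pdgfra and Cspg4 were called lower, 3.90-fold and 1.81-fold, and Gad1 was the neuron marker called, 2.28-fold higher. In such bulk samples fewer cells of a type and less RNA per cell cannot be told apart.

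Promoter stretches are shown for the 2 kinase genes, which share a role, and for the E2F target gene Mcm6, which encodes a subunit of the replicative helicase. They come from RefSeq on GRCm38.p6, hold the 250 bases before the start site and are written 5′ to 3′. Capitals mark the E-box CACGTG, a site bound by MYC and related factors, in Cdk4 and Cdk6, and the E2F motif TTTNGCGC, on either strand, in Mcm6.
Cdk4 (chr10:127063285-127063534, + strand): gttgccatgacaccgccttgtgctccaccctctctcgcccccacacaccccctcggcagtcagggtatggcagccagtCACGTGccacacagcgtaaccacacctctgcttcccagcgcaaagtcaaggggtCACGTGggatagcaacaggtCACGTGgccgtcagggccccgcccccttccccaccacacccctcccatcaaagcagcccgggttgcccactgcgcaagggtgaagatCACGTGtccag
Cdk6 (chr5:3343643-3343892, + strand): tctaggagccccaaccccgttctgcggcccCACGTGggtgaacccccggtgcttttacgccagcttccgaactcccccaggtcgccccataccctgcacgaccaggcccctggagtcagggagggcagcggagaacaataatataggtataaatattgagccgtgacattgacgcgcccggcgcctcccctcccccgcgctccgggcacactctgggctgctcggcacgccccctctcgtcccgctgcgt
Mcm6 (chr1:128359706-128359955, - strand): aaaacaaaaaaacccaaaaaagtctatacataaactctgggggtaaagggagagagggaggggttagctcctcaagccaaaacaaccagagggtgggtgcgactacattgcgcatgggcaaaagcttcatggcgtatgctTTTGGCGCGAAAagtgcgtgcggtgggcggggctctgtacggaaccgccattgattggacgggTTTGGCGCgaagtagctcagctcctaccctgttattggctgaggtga
The Cdk4 stretch held 4 E-boxes and the Cdk6 stretch 1. Of all 32851 promoter windows of 300 bases in that table, 7.15% held at least 1 E-box. Windows were found for 6 of the 10 genes, and Cdkn2c held an E-box as well, after the start site in 1 of its windows. The GC box CCGCCC and the CRE motif TNACGTCA were also searched. The GC box was found in 5 of the 6 genes, against 35.7% of all windows, and the CRE motif in 0, against 2.93%. The Mcm6 stretch held 3 E2F motifs, of which 2 overlap. That motif occurred in 1.38% of all windows, in 0 of the 6 genes with a window, and in 7 of the 20 E2F target genes with one. Of the E2F targets called below, Rrm1, Rrm2, Tk1 and Cdc45, 0 held it, and Mcm6, shown for its motifs, was not called (edgeR adjusted p = 0.127). A match is a description of the letters and not evidence of binding.

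After PTN, Cdk6 and the cyclin gene Ccnd2 were 2.49-fold and 2.38-fold higher and the inhibitor gene Cdkn2c was 1.48-fold lower than in Control (n = 3 each). Ccnd1 was high in PTN 1 and PTN 3 but at the Control level in PTN 2, and its difference was not called. The 6 others, Ccnd3, Cdk4, Cdkn1b, Cdkn1c, Rb1 and E2f1, were not called either. Calls rest on the quasi-likelihood test of edgeR with Benjamini-Hochberg adjustment over all tested genes, at an adjusted p under 0.05. Called were 3 of the 10 genes, 2 higher and 1 lower, against 7.99% of all tested genes, 4.93% higher and 3.06% lower. The 3 PTN values lay wholly above the Control values in 2 genes and wholly below in 3, against 15.7% and 17.1% of all tested genes. Their median log2 fold change was 0.04, and that of all tested genes 0.03.

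**Figure D1:**
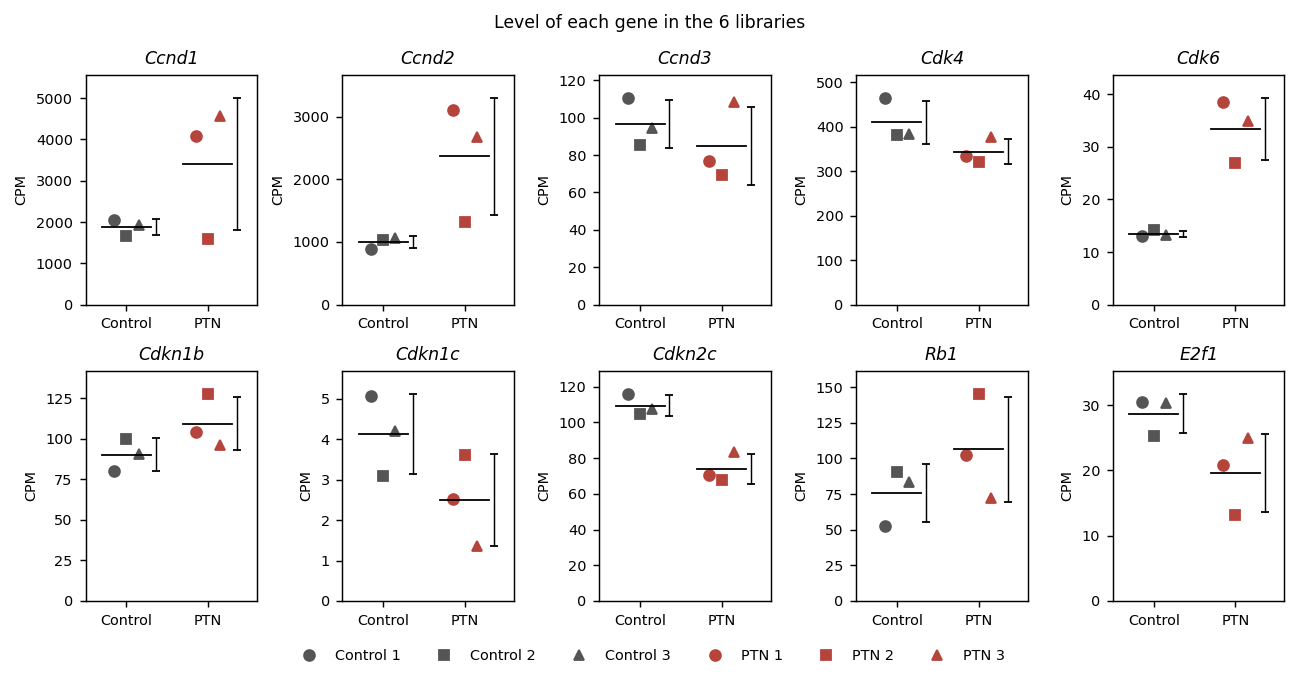
Level of each of the 10 genes in CPM (vertical axes, from 0) in the 3 Control and 3 PTN libraries. Symbols mark the libraries, lines the group means and bars the SD. Cdk6 and Ccnd2 lie higher in all PTN libraries than in any Control library, and PTN 2 is the lowest PTN library for the D-type cyclins, both kinases, Cdkn2c and E2f1.

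Among the cyclins, Ccnd2 (ENSMUSG00000000184 in the deposited table) stood at 884, 1034 and 1068 CPM in the Control libraries and at 3108, 1318 and 2679 CPM in the PTN libraries, both here and below in the order of their numbers. The groups did not overlap, but PTN 2 lay much nearer to Control than the other PTN libraries did. The group means were 995 ± 97.9 and 2368 ± 935 CPM (SD, n = 3 each), and edgeR gave a log2 fold change of 1.25 with an SE of 0.29 (adjusted p = 0.0355). Cyclin D2 is the D-type cyclin known to be needed for adult neurogenesis. The call of Ccnd2 was lost when any Control library (edgeR adjusted p = 0.136 without number 1, 0.0974 without 2, 0.115 without 3) or PTN 1 (0.105) was left out, and its adjusted p was 0.00358 without PTN 2.

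Ccnd1, the classical target of growth factor signalling, stood at 2050, 1669 and 1925 CPM in the Control libraries. It reached 4095 and 4560 CPM in PTN 1 and PTN 3, and 1577 CPM in PTN 2. PTN 2 thus lay below all Control libraries while the other PTN libraries lay above them. The log2 fold change was 0.86 with an SE of 0.35 (edgeR adjusted p = 0.158), and it was 1.20 with an adjusted p = 0.00713 without PTN 2. It was not called when any other single library was left out, with 0.71 (0.359) without PTN 1 and 0.59 (0.216) without PTN 3. The range of Ccnd1 over the 3 PTN libraries, 1.53 on the log2 CPM scale, was larger than that of 95.1% of the tested genes, and that of Ccnd2, 1.24, larger than that of 91% of them. PTN 2 was also the PTN library with the most astrocyte marker RNA, as given above, and the part of this in the cyclin values was not tested. Ccnd3, which encodes the D-type cyclin best known from lymphocytes, averaged 96.8 ± 12.9 CPM in Control against 84.8 ± 20.6 CPM in PTN cells (SD, n = 3 each), with overlapping groups and a log2 fold change of -0.19 that was not called (SE 0.20, edgeR adjusted p = 0.537).

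Levels per gene length allow the cyclins to be set side by side. The length implied by counts and FPKM differed between libraries for some genes, and the shares and ratios given here and below carry this. In FPKM, which is fragments per kilobase of gene and scaled by depth, Ccnd1 led in every library. Of the summed FPKM of the 3 cyclins, Ccnd1 took 69.2 ± 2.68% in Control and 66.7 ± 4.40% in PTN, and Ccnd2 22.9 ± 3.13% and 29.1 ± 3.37% (SD, n = 3 each). The share of Ccnd3 was 8.38, 7.54 and 7.57% in the Control libraries and 2.69, 6.10 and 3.62% in the PTN libraries. The Ccnd3 share was lower in each PTN library than in any Control library, PTN 2 being the nearest to Control, while the Ccnd1 shares overlapped. The summed level was 726 ± 55.0 FPKM in Control, and 1627, 680 and 1712 FPKM in the PTN libraries. PTN 2 therefore had a Control-like sum of cyclin RNA.

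**Figure D2:**
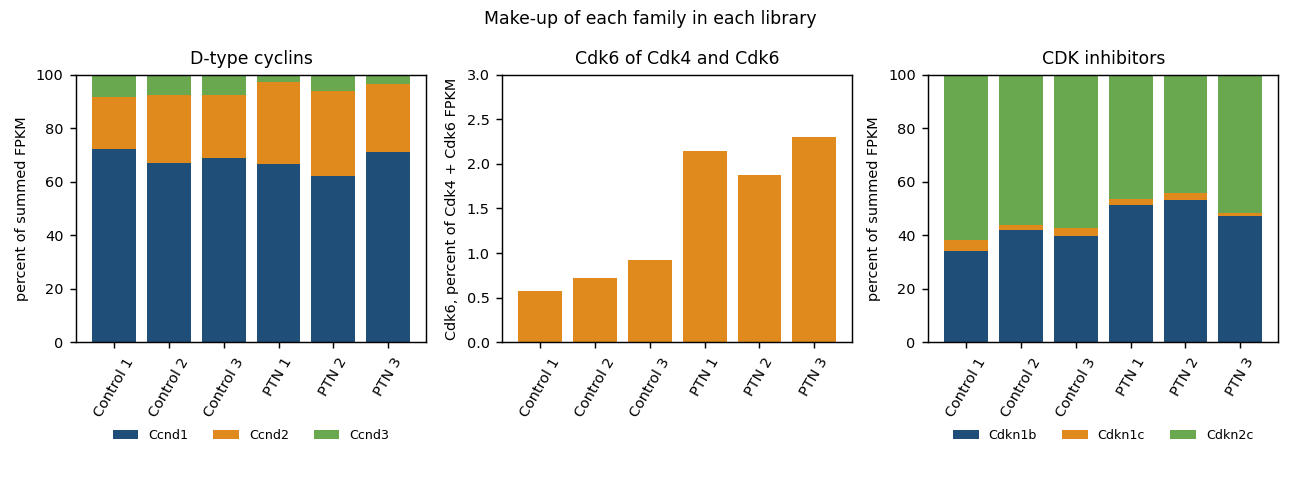
Percent of summed FPKM (vertical axes) taken by each D-type cyclin, by Cdk6 within Cdk4 and Cdk6, and by each CDK inhibitor, in the 6 libraries. Cdk6 takes 1.88 to 2.31% in PTN and 0.579 to 0.918% in Control, and Cdkn1b takes a larger share of the inhibitors in each PTN library than in any Control library.

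Of the kinase genes, Cdk6 (ENSMUSG00000040274) stood at 13.1, 14.1 and 13.2 CPM in the Control libraries and at 38.6, 27.0 and 34.9 CPM in the PTN libraries. The Control values were close together, and each PTN value was well above them. The log2 fold change was 1.31 with an SE of 0.18 (edgeR adjusted p = 0.00515), and the adjusted p stayed between 0.0039 and 0.0351 when each library was left out in turn. CDK6 is known to be needed for the supply of new neurons in the adult brain. Cdk4 stood at 466, 381 and 385 CPM in the Control libraries and at 335, 322 and 376 CPM in the PTN libraries. All PTN values lay below the Control values, PTN 3 only just, and the log2 fold change of -0.25 ± 0.15 (SE) was not called (edgeR adjusted p = 0.295). Per length, Cdk4 was the far more abundant of the pair, at 108 to 172 times the FPKM of Cdk6 in Control and 42.4 to 52.2 times in PTN.

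Among the inhibitors, Cdkn2c (ENSMUSG00000028551), which encodes an INK4 protein that binds CDK4 and CDK6, stood at 116, 105 and 107 CPM in the Control libraries. It was at 70.4, 67.8 and 83.4 CPM in the PTN libraries, all below the Control values. The log2 fold change was -0.57 with an SE of 0.14 (edgeR adjusted p = 0.0465). This call was lost when any Control library (edgeR adjusted p = 0.124 without number 1, 0.103 without 2, 0.141 without 3), PTN 1 (0.138) or PTN 2 (0.0947) was left out.

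Cdkn1b, which encodes the CIP/KIP inhibitor of resting and newly differentiated cells, averaged 90.2 ± 9.99 CPM in Control against 109 ± 16.4 CPM in PTN cells (SD, n = 3 each). Its groups overlapped and its log2 fold change of 0.28 ± 0.16 (SE) was not called (edgeR adjusted p = 0.291), with a range of 0.15 to 0.36 when single libraries were left out. Cdkn1c, an imprinted gene of the same family, had only 26 to 120 counts per library, at 5.07, 3.10 and 4.21 CPM in the Control libraries against 2.52, 3.61 and 1.35 CPM in the PTN libraries. Its groups overlapped through PTN 2, and the log2 fold change was -0.72 with an SE of 0.37 (edgeR adjusted p = 0.24), with a range of -1.07 to -0.43 when single libraries were left out. Within the summed FPKM of the 3 inhibitors, Cdkn2c took 58.4 ± 3.01% in Control and 47.5 ± 3.86% in PTN, and Cdkn1b 38.6 ± 3.92% and 50.6 ± 3.08% (SD, n = 3 each). The FPKM of Cdkn1b was 0.555 to 0.748 times that of Cdkn2c in Control and 0.91 to 1.2 times in PTN.

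Rb1 stood at 52.5, 90.7 and 83.4 CPM in the Control libraries and at 102, 145 and 72.0 CPM in the PTN libraries. The groups overlapped, with PTN 2 the highest library and Control 1 the lowest, and the log2 fold change was 0.50 with an SE of 0.28 (edgeR adjusted p = 0.28), going to 0.27 without Control 1 and 0.21 without PTN 2. E2f1 stood at 30.6, 25.2 and 30.3 CPM in the Control libraries and at 20.8, 13.2 and 25.0 CPM in the PTN libraries. All PTN values lay below the Control values, PTN 3 by under 1 CPM, and the log2 fold change was -0.55 with an SE of 0.23 (edgeR adjusted p = 0.177), going to -0.33 without PTN 2 and -0.75 without PTN 3 (0.0512).

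Ordered by mean FPKM, Control cells had Ccnd1 (504), Cdk4 (234), Ccnd2 (166), Ccnd3 (57.0), Cdkn2c (53.6), Cdkn1b (35.4), Rb1 (16.2), E2f1 (10.5), Cdkn1c (2.75) and Cdk6 (1.71). The ranges of neighbours overlapped only for Ccnd3 with Cdkn2c and for Cdkn1c with Cdk6. In PTN cells Ccnd2 (382) stood above Cdk4 (196), Cdkn1b (40.9) beside Cdkn2c (38.4), and Cdk6 (4.24) above Cdkn1c (1.54). The neighbours that overlapped there were Ccnd1 with Ccnd2, Ccnd3 with Cdkn1b, Cdkn1b with Cdkn2c, and E2f1 with Cdk6. Ccnd2 was at 0.549 to 0.826 times the FPKM of Cdk4 in Control and 1.17 to 2.61 times in PTN, the lowest PTN ratio being that of PTN 2.

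**Figure D3:**
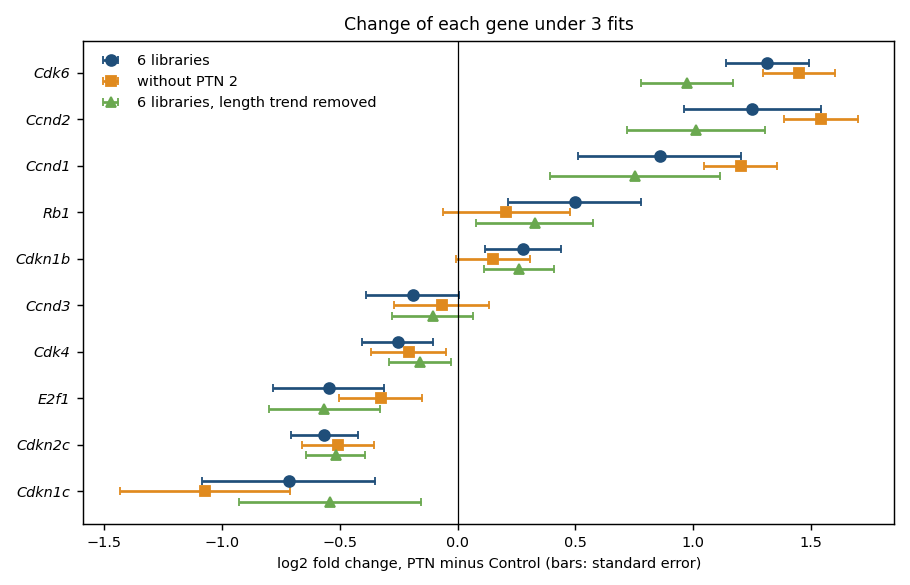
Log2 fold change (PTN minus Control, horizontal axis) of each gene with its standard error, from all 6 libraries, without PTN 2, and with the trend on gene length removed. Without PTN 2, Ccnd1 moves from 0.86 to 1.20 and Rb1 from 0.50 to 0.21, and with the length trend removed Cdk6 moves from 1.31 to 0.97.

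Gene length moved with the fold changes in these libraries. The median log2 fold change rose from -0.24 in the shortest eighth of tested genes to 0.31 in the longest. Lengths were those implied in the library with the highest count of each gene, and other libraries could imply another length. Cdk6 and Ccnd2, with implied lengths of 9155 and 6212 bases, belong to the longest eighth. Cdkn2c, with 2034 bases, belongs to the third, whose median was -0.06. With a trend on length removed from each library, the log2 fold change was 0.97 for Cdk6 (edgeR adjusted p = 0.0261), 1.01 for Ccnd2 (0.0805) and -0.52 for Cdkn2c (0.0467). The call of Ccnd2 was thus lost and those of Cdk6 and Cdkn2c were kept. With PTN 2 also left out, a combination chosen after seeing the data, the log2 fold change was 1.13 for Cdk6 (0.0139), 1.31 for Ccnd2 (0.00446), 1.10 for Ccnd1 (0.0142) and -0.47 for Cdkn2c (0.0867). The same combination with PTN 3 left out was not run. With the length trend kept, edgeR called 649 of all tested genes higher and 403 lower. These numbers were 666 and 445 without PTN 2, and 1273 and 904 without PTN 3.

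**Figure D4:**
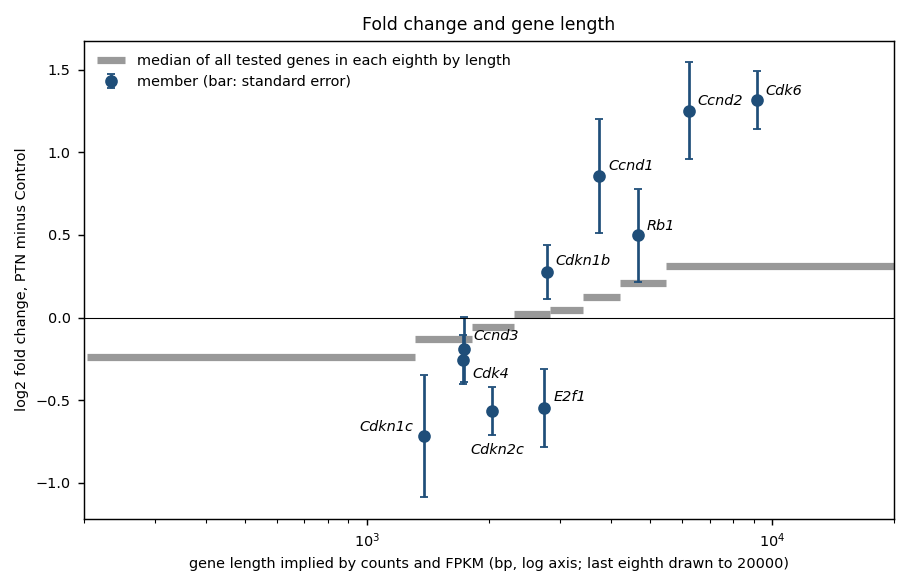
Log2 fold change (PTN minus Control, vertical axis) of the 10 genes with their standard errors against gene length (log axis), with the median of all tested genes in each eighth by length in grey. The medians rise from -0.24 to 0.31, and Cdk6 and Ccnd2 lie above the median of their eighth while Cdkn2c lies below that of its own.

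Of the other genes that control passage from G1 to S phase, 32 of 33 listed were found and tested, and 1 was called higher and 0 lower by edgeR, against 4.93% and 3.06% of all tested genes. At an unadjusted p under 0.05 by edgeR 3 were higher and 3 lower, where 14.7% and 12.2% of all tested genes were. DESeq2's Wald test called 2 higher and 1 lower, against 8.62% and 5.88%. The 3 PTN values lay wholly above the Control values in 5 of the 32 genes and wholly below in 6, against 15.7% and 17.1% of all tested genes. Counts this small, near or somewhat below the shares over all tested genes, do not set the list apart from them. The gene called was Cdkn2b, whose INK4 protein inhibits CDK4 and CDK6 as that of Cdkn2c does. Cdkn2b stood at 39.9, 38.7 and 37.0 CPM in the Control libraries and at 62.0, 78.7 and 85.7 CPM in the PTN libraries. All PTN values were far above the Control values, so that these related INK4 genes were called in opposite directions. Cdkn2b was 1.96-fold higher (log2 fold change 0.97, SE 0.16, edgeR adjusted p = 0.00941). That adjusted p rose to 0.0515 when Control 2 and to 0.0762 when Control 3 was left out. The median log2 fold change of the 32 genes was -0.04, against 0.03 for all tested genes, with 15 positive and 17 negative.

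E2F proteins drive genes of DNA replication, and of 24 such target genes 4 were called lower and 0 higher, against 3.06% and 4.93% of all tested genes. At an unadjusted p under 0.05 by edgeR 12 were lower and 0 higher, against 12.2% and 14.7% of all tested genes. By DESeq2's Wald test 6 were called lower and 0 higher, against 5.88% and 8.62%. Negative log2 fold changes were found in 22 of the 24 and the median was -0.41, against 0.03 for all tested genes. The genes called were Rrm1 and Rrm2, the subunits of ribonucleotide reductase, the thymidine kinase gene Tk1 and the replication fork gene Cdc45. Rrm1 stood at 426, 466 and 464 CPM in the Control libraries and at 300, 227 and 289 CPM in the PTN libraries. Tk1 stood at 65.7, 54.0 and 55.7 CPM in the same Control libraries and at 30.8, 18.4 and 35.9 CPM in the PTN libraries. PTN 2 was the lowest library for both, as it was for E2f1, and neither gene's groups overlapped. Rrm1 was 1.66-fold lower (edgeR adjusted p = 0.0262), Tk1 2.06-fold (0.0332), Rrm2 1.90-fold (0.0354) and Cdc45 1.63-fold (0.0408). When any 1 Control library was left out, 0 were called lower, and the number was 1, 3 and 8 without PTN 1, PTN 2 and PTN 3. Lower calls over all tested genes went from 403 to 132, 172 and 130 without the Control libraries and to 159, 445 and 904 without the PTN libraries. They moved in the same direction except without PTN 2, where they rose while the E2F target calls fell. Without PTN 1 the gene called was Rrm1 (adjusted p = 0.049), and without PTN 2 they were Rrm1 (0.0379), Rrm2 (0.0242) and Tk1 (0.0317). Summed markers of cycling cells (8 genes) ranged over 1067 to 1584 CPM in Control and 775 to 1540 CPM in PTN, a sum carried mostly by Top2a and Mki67. Of these 8 markers, 3 were called lower (Ccnb1, Plk1 and Birc5) and 0 higher, 6 had negative log2 fold changes, and their median was -0.47. Positive log2 fold changes were seen in 2, Mki67 (0.04) and Cenpf (0.10). By library the sum was 1540, 930 and 775 CPM in PTN 1, 2 and 3, so that PTN 3 and not PTN 2 was lowest. Only some markers of cycling cells thus moved with the E2F target genes, and the part of cycling cells in these values was not tested.

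**Figure D5:**
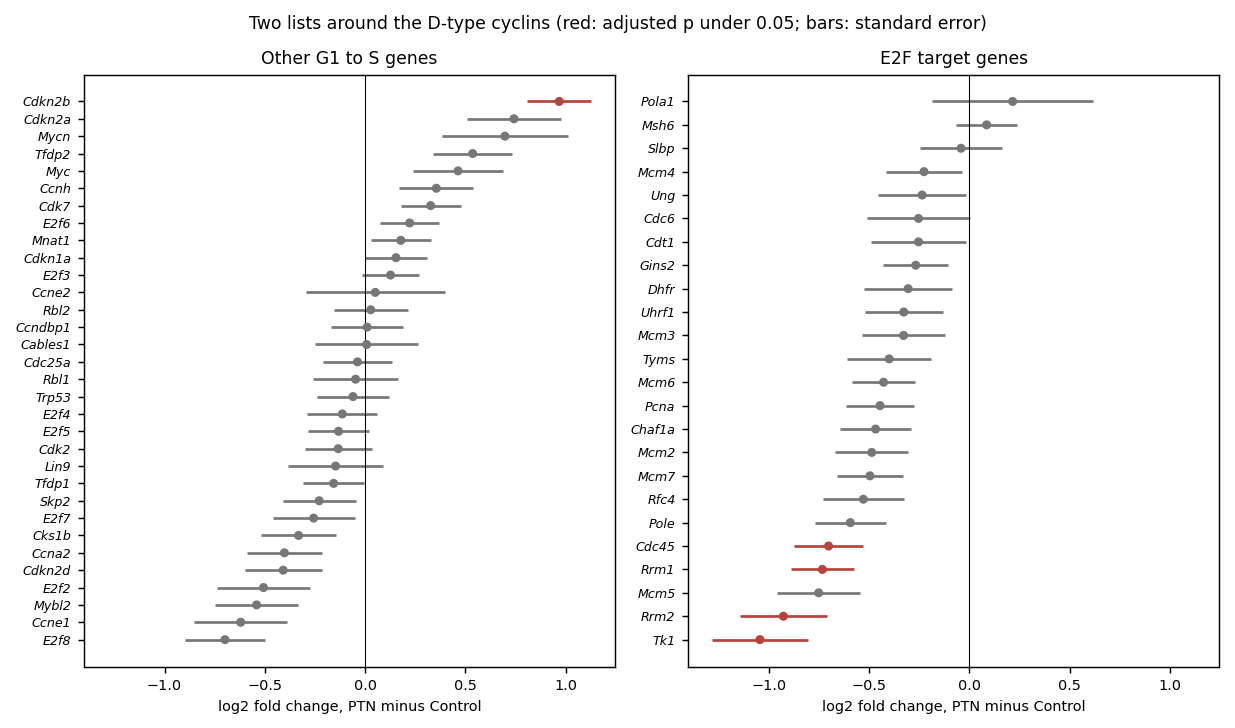
Log2 fold change (PTN minus Control, horizontal axes) with its standard error for 32 other G1 to S genes and 24 E2F target genes, red where the adjusted p was under 0.05. Cdkn2b is the called gene on the left, and 22 of the 24 genes on the right lie below 0.

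The genes with profiles most like those of the called members were sought among 9437 other genes of at least 10 CPM, by the root mean square distance between log2 CPM values over the 6 libraries, each centred on its own mean. For Cdk6 these were Grip1, a scaffold gene of glutamate receptors, Megf11 and Ankrd50, at distances of 0.05, 0.07 and 0.12. For Ccnd2 they were the transporter gene Abcg2 (0.09), the basement membrane gene Nid1 (0.10) and the lipase gene Liph (0.10). Abcg2 stood at 13.7, 18.1 and 15.4 CPM in the Control libraries and at 48.4, 19.8 and 40.4 CPM in the PTN libraries, so that it shared the low value of Ccnd2 in PTN 2. For Cdkn2c they were the cytokine gene Mif (0.04), the ribosomal protein gene Rpl3 (0.04) and the peptidase gene Apeh (0.04). These likenesses rest on 6 libraries that fall into the same groups. The genes were chosen for them, so the shared low value in PTN 2 follows from the choice and is not a separate result.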

How the data were processed

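RNA of mouse neural stem progenitor cells was sequenced from a SMARTER mRNA library kit, 3 PTN and 3 Control libraries, per the labels' protocols. Aligner, counter, build and gene models are each not given in the sources used here. Per-gene expected counts (estimated reads or fragments, unscaled) and FPKM values (scaled by gene length and depth) were deposited by the authors, 1 column each per library, per the file headers. Column names were matched to titles by group initial and replicate number. For Ccnd1, Ccnd3 and Cdk4 the expected counts were fractional in all 6 libraries and for E2f1 in 1, so these genes may share reads with similar sequences and their values are less certain. Gene lengths are those implied by the deposited counts and FPKM in the library with the highest count of the gene. For some genes the implied length differed between libraries. Cdk6 stood at 13.1 and 13.2 CPM in Control 1 and Control 3, but at 1.58 and 1.99 FPKM.

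Expected counts were rounded, filtered with filterByExpr (13161 of 22322 genes, 59%), scaled by TMM and compared with edgeR's quasi-likelihood test (edgeR 4.0.16, R 4.3.3), PTN minus Control, without covariates. Adjustment over all tested genes followed Benjamini and Hochberg. The SE of a log2 fold change is its size divided by the root of the F statistic, and CPM values are scaled by TMM. Totals ran from 19267764 to 26341745 expected counts per library, so genes of a few CPM rest on few counts. Scripts were tested on simulated data. Results were recomputed with other scaling (size factors of DESeq2, upper quartiles, totals), other filters (none, or 1 CPM in 3 libraries), the Wald test of DESeq2 1.42.0, voom and limma 3.58.1 on log2(FPKM + 1) and log2(FPKM + 0.1), the replicate number as a block, removal of a lowess trend of each library on log2 length, a call at an adjusted p under 0.1, and each library left out in turn.

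The members, lists and tests were chosen with earlier results of these data known. Named are all 10 members, called genes of the G1 to S and E2F target lists, up to 8 per list by smallest p, the 3 genes of nearest profile for each of the 3 members of smallest p, and the highest and lowest genes of the marker lists. Of the marker lists not given elsewhere, summed neuron markers (9 genes) lay between 254 and 507 CPM and summed oligodendrocyte lineage markers (8 genes) between 396 and 591 CPM over the 6 libraries. By mean CPM the highest and lowest markers were Vim (4307) and Hes1 (13.4) for stem and progenitor cells, Top2a (381) and Bub1 (33.3) for cycling cells, Gfap (2232) and Gjb6 (1.55) for astrocytes, Map2 (342) and Slc17a6 (0) for neurons, and Olig2 (334) and Mog (0.104) for the oligodendrocyte lineage. They were P2ry12 (2.20) and Tmem119 (0.0134) for microglia, Kdr (1.69) and Cldn5 (0.0602) for endothelium, and Acta2 (10.0) and Lum (0.13) for fibroblasts and mural cells.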

Additional observations from a re-analysis of the deposited data

How the results depend on the processing

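In all 18 alternative fits the log2 fold change of each of the 10 members kept its sign, and Cdk6 stayed called. That of Ccnd3 was only -7.93e-05 with the length trend removed and PTN 2 left out, too small to have a direction. The number of members called higher, 2, was 1 with the length trend removed and with limma on log2(FPKM + 1), where Ccnd2 was lost, and 1 to 3 when single libraries were left out. The number called lower, 1 (Cdkn2c), was 0 without a filter (adjusted p = 0.0517), with limma on log2(FPKM + 1) (0.0572) and on log2(FPKM + 0.1) (0.0604) and with the replicate block (0.134), and 0 to 1 without single libraries. Of the other G1 to S genes, 1 was called higher, but 2 by DESeq2's Wald test, at an adjusted p under 0.1 and with the length trend removed, and 0 to 3 without single libraries. Called lower were 0, but 1 by DESeq2's Wald test and at an adjusted p under 0.1, and 0 to 2 without single libraries. E2F target genes called lower numbered 4, but 2 with the replicate block, 5 with upper-quartile scaling, no filter or the length trend removed, 6 at an adjusted p under 0.1 and by DESeq2's Wald test, and 0 to 8 without single libraries, while 0 were called higher throughout. The cause was not tested, but a fit without 1 library has fewer samples. With length trend and PTN 2 both removed, 3 members were called higher and 0 lower, 3 other G1 to S genes higher, and 3 E2F target genes lower.

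From FPKM, the Ccnd3 share of the cyclins differed by -3.69 percentage points (PTN minus Control), and from CPM, which is not per length, by -1.63. Without single libraries it ranged over -4.67 to -2.97, that of Ccnd2 (6.23) over 4.52 to 8.15 and that of Ccnd1 (-2.54) over -4.72 to -0.32.

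Replicate numbers gave no clear pairing of the libraries. Deviations from the group means correlated across genes at -0.51, 0.36 and -0.005 for numbers 1, 2 and 3. Of the 3 Control libraries, 1 correlated best with the PTN library of its own number. With so few libraries per group this check cannot exclude a pairing. With the replicate block, Cdk6 and Ccnd2 stayed called (edgeR adjusted p = 0.00952 and 0.0405). Depth limits Cdkn1c most, at 26 to 120 counts.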

Other observations

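The deposited annotation places all 10 genes in the cell cycle pathway, with 112 other tested genes. Of these others edgeR called 5 higher (4.46%) and 8 lower (7.14%), against 4.93% and 3.06% of all tested genes, and their median log2 fold change was -0.07. The share called higher was thus near that of all genes. Named here after their values were seen, the higher genes were Cdkn2b, Gadd45b, Smad3, Tgfb2 and Cdc14a, and the lower ones Cdc45, Bub1b, Ccna1, Ccnb1, Ccnb2, Cdc20, Cdc25c and Plk1. The log2 fold change was 1.83 (SE 0.20, edgeR adjusted p = 0.00283) for Gadd45b, which encodes a growth arrest protein, and -0.85 (SE 0.15, 0.0125) for Cdc25c, which encodes a phosphatase that activates CDK1.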
